A study of Mus musculus with 12 samples.

Results

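The 10 Toll-like receptor (TLR) genes Tlr1, Tlr2, Tlr3, Tlr4, Tlr5, Tlr6, Tlr7, Tlr8, Tlr9 and Tlr13 were taken by gene symbol out of 41709 genes and followed through 12 poly(A) RNA-seq libraries of mouse bone marrow-derived dendritic cells (BMDCs). Every donor mouse was homozygous for a floxed allele of CD18, the β2 integrin subunit encoded by Itgb2, with loxP sites around exon 3. CD18fl/fl cells lacked Cre, and CD18CD11c cKO cells carried Cre under the CD11c promoter, so that recombination was limited to cells in which that promoter was active. BMDCs were grown with GM-CSF for 10 days and either left unstimulated or given 100 ng/mL LPS for 24 h according to the labels (overnight in the methods of the study), and MHCII-positive cells were isolated magnetically before lysis. Each of the 4 groups of genotype and treatment held 3 libraries, numbered as replicates 1 to 3. Ages of the mice, the number of mice behind a culture, and whether libraries of the same number shared a culture were not given.

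TLRs are the germline-encoded sensors by which dendritic cells recognize microbial molecules, and their engagement drives dendritic cell maturation. The receptors of the plasma membrane read microbial surfaces: TLR2 pairs with TLR1 or TLR6 to bind lipopeptides, TLR4 with its partner MD-2 binds LPS, and TLR5 binds flagellin. The endosomal receptors read nucleic acids: TLR3 double-stranded RNA, TLR7 and TLR8 single-stranded RNA and its breakdown products, TLR9 unmethylated CpG DNA, and TLR13, a receptor of mice without a human counterpart, bacterial ribosomal RNA.

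The members lay on 6 chromosomes of the mouse genome (GRCm39, coordinates of the deposited table). Tlr1 (ENSMUSG00000044827, chr5:65082022-65090906) and Tlr6 (ENSMUSG00000051498, chr5:65109374-65117440) were neighbours on the minus strand. Tlr7 (ENSMUSG00000044583, chrX:166087925-166113554) and Tlr8 (ENSMUSG00000040522, chrX:166025692-166047325) formed another minus-strand pair, and Tlr13 (ENSMUSG00000033777, chrX:105186810-105204099) lay on the plus strand of the same chromosome. The other genes were Tlr2 (ENSMUSG00000027995, chr3:83743579-83749074, minus strand), Tlr3 (ENSMUSG00000031639, chr8:45848702-45864117, minus strand), Tlr4 (ENSMUSG00000039005, chr4:66745821-66848521, plus strand), Tlr5 (ENSMUSG00000079164, chr1:182782353-182804010, plus strand) and Tlr9 (ENSMUSG00000045322, chr9:106099797-106104082, plus strand). In the GENCODE annotation of that build the coding sequences of Tlr1, Tlr2 and Tlr6 each lay in 1 exon, and the largest coding exon held 68.3% of the coding bases of Tlr3, 89.7% of those of Tlr4 and at least 98.5% of those of the remaining members.

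The sequences of Tlr1 and Tlr6 bear on how their reads could be told apart. Their coding exons, each of 2385 bases, were identical at 74.1% of 2371 aligned bases, with 57.6% identity over the 5′ part of the alignment and 90.6% over the 3′ part, split at its midpoint. The longest identical run was 229 bases, and 405 of the 2327 possible stretches of 59 bases (17.4%), the read length, occurred in both genes. The run is shown for both genes 5′ to 3′ in capitals with 30 coding bases on either side in lower case, Tlr1 from chr5:65082850-65083138 and Tlr6 from chr5:65111141-65111429 (GRCm39, minus strand).
Tlr1: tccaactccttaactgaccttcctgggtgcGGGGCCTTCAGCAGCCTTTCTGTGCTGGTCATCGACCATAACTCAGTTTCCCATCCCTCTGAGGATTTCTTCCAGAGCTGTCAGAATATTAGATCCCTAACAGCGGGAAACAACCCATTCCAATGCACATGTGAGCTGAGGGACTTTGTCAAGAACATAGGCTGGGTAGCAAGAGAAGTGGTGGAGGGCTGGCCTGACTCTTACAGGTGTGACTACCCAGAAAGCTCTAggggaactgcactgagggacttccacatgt
Tlr6: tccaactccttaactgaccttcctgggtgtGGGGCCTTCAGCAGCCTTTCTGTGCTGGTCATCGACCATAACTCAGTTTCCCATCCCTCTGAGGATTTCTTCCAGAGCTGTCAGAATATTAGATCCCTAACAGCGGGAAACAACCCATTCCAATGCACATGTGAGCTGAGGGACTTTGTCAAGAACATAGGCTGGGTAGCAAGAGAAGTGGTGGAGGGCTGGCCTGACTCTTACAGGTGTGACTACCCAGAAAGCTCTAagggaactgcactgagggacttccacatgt
Between 94.4% and 100% of the reads counted for Tlr1 in a library, and between 94.6% and 97.4% of those for Tlr6, were unique to the gene. The other members had at least 99.4% unique reads in every library. The reads of Tlr1 and Tlr6 that fell in shared stretches are therefore a small but uncertain share of the values given for both.

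The 250 bases before the start were available for 8 of the 10 members, in 10 RefSeq entries (GRCm38.p6), but not for Tlr4 and Tlr7. These windows and those of all 32851 entries were searched on both strands for the interferon response-type motif GAAANNGAA (held by 7.13% of all entries), the STAT-type motif TTCNNNGAA (7.02%), the kappaB-type motif GGGANTTTC (0.941%) and the PU.1-type motif GAGGAAGT (2.44%). The windows of Tlr1, Tlr6 and Tlr8, the members that edgeR called for LPS with the replicate number as a block in at least 1 genotype, are printed 5′ to 3′ with matches in capitals, the first entry where RefSeq had several. They were chr5:64933559-64933808 for Tlr1, chr5:64959167-64959416 for Tlr6 and chrX:167264330-167264579 for Tlr8, all on the minus strand.
Tlr1: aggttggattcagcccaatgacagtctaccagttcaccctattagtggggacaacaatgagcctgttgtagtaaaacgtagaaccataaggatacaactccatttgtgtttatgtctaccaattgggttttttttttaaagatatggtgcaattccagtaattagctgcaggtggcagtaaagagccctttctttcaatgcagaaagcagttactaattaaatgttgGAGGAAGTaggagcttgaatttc
Tlr6: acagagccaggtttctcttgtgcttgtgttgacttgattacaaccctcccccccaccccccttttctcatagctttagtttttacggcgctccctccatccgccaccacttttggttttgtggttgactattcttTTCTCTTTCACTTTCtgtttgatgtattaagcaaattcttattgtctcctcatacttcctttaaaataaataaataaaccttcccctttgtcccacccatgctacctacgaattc
Tlr8: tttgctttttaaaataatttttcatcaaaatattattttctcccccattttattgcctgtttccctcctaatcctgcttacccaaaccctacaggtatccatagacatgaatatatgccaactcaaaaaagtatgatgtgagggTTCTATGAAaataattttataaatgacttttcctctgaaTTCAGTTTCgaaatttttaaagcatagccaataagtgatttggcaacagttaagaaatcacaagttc
The capitals mark 1 PU.1-type match before Tlr1, 2 overlapping interferon response-type matches, read on the opposite strand, before Tlr6, and 1 STAT-type and 1 interferon response-type match before Tlr8. The second entry of Tlr1 held 1 STAT-type match and the window of Tlr3 held 1 kappaB-type match. No match was found in the second entry of Tlr6 or in the windows of Tlr2, Tlr5, Tlr9 and Tlr13. A match is a run of letters and was not tested as a binding site.

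The libraries held between 29689149 and 34037178 reads assigned to genes. Levels are given as CPM, the reads of a gene relative to all reads of its library, scaled by the trimmed mean of M values (TMM). The targeted gene Itgb2 averaged 393.5 ± 23.0 CPM in unstimulated CD18fl/fl cells and 157.7 ± 34.8 CPM in unstimulated cKO cells (SD, n = 3 each), and the groups did not overlap. The counts of Itgb2 run over the whole gene, so they do not show loss of exon 3 itself. Of 11 markers of the labelled cell type, Zbtb46 ranged from 19.5 to 37.2 CPM and H2-Ab1 from 4237 to 13255 CPM over the 12 libraries. The cells had been isolated by MHCII, so the presence of H2-Ab1 says nothing about their type. The 10 macrophage markers were present too, with sums of 564.0 to 2377 CPM. Replicate 3 stood apart in all 4 groups, with Itgax at 284.4 to 680.1 CPM against 30.7 to 210.0 CPM in replicates 1 and 2, Flt3 at 0.2 to 2.2 CPM against 9.2 to 35.4 CPM, and a summed level of 6 B cell markers of 0.665 to 2.64 CPM against 8.83 to 138.8 CPM. The calls of members made below are also given for replicates 1 and 2 alone. In these bulk libraries, fewer cells that express a gene cannot be told apart from less RNA of that gene per cell.

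Of the 10 members, Tlr1, Tlr6 and Tlr13 were lowest in replicate 3 in all 4 groups and Tlr4 was highest there in all 4. The other members took mixed positions. The plot of levels by library shows these positions for each member.

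**Figure D1:**
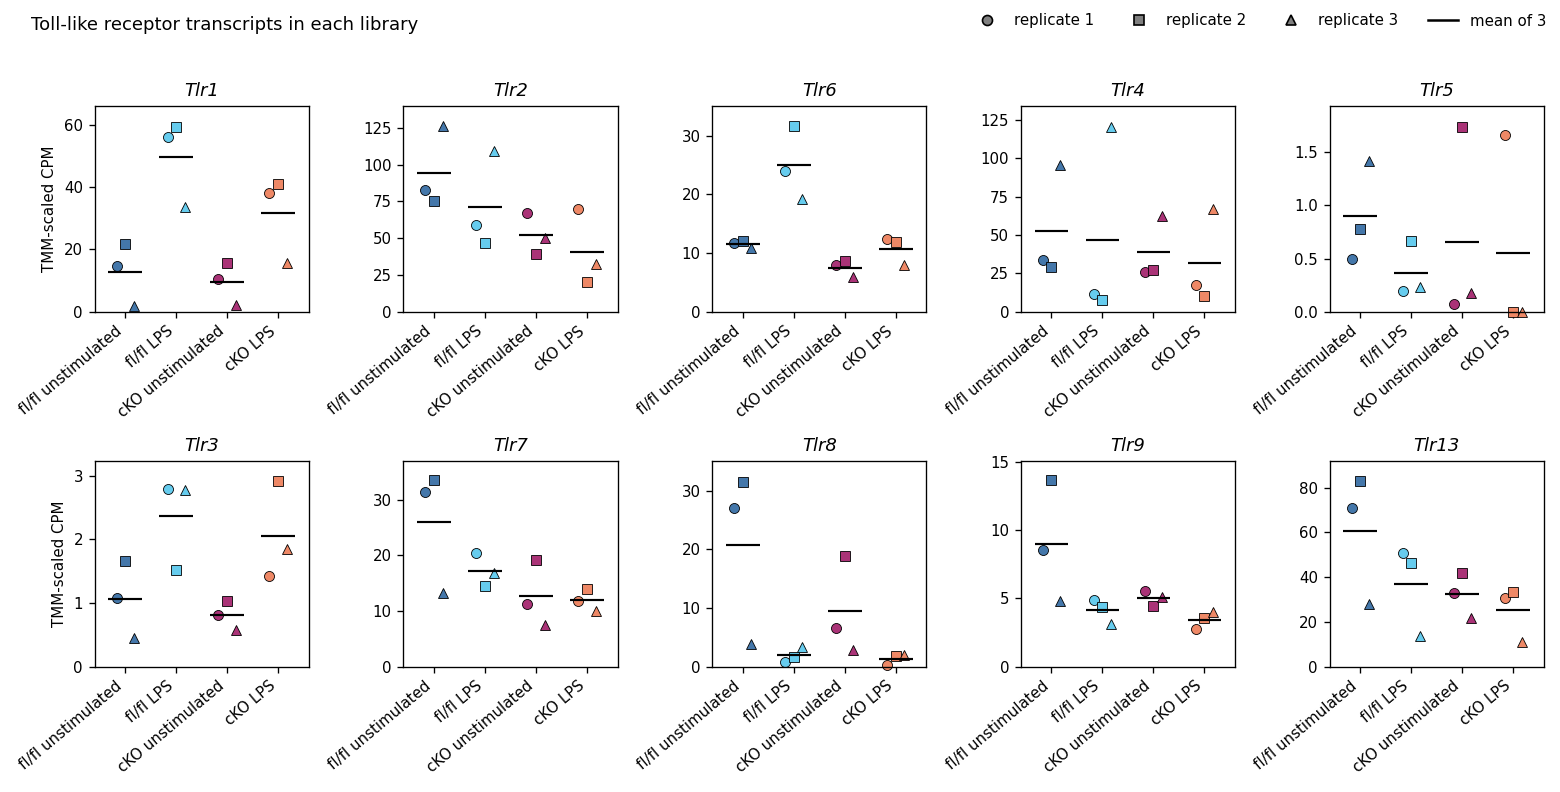
TMM-scaled CPM (vertical axis, linear, from 0, a scale of its own in each panel) of the 10 TLR genes in the 4 groups. Each marker is 1 library, with the shape giving the replicate number, and the line is the mean of 3. Tlr1 sat between 33.7 and 59.3 CPM in the CD18fl/fl LPS libraries against 1.76 to 21.6 CPM without LPS, and the triangles of replicate 3 sat highest for Tlr4 in every group.

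The first comparison asked how the TLR transcripts stood after LPS, the ligand of TLR4, in each genotype. In CD18fl/fl cells Tlr1 and Tlr6, the partners of TLR2, stood higher after LPS and passed the test once the replicate number was in the model, while Tlr8 stood lower in every pair of same-numbered libraries and did not pass it. In cKO cells Tlr1 again rose and Tlr8 fell in that model. Without the replicate number, 0 of 10 tested members passed an adjusted p of 0.05 in CD18fl/fl cells (edgeR's quasi-likelihood test, 3.89% of all genes tested) and 0 of 9 in cKO cells (3.99%), whereas 4 and 2 members had an unadjusted p under 0.05, against 23.8% and 21.2% of all genes. DESeq2 without the replicate number gave 3 members in CD18fl/fl cells and 1 in cKO cells, against 12.8% and 10.7% of the genes it tested. With the replicate number as a block, edgeR gave 2 higher and 0 lower in CD18fl/fl cells (6.33% and 6.43% of all genes, 12.8% in either direction) and 1 higher and 1 lower in cKO cells (10.2% and 9.93%, 20.2% in either direction). On so few members these counts cannot show whether members passed more or less often than other genes. The median log2 fold change over the tested members without the block was -0.49 in CD18fl/fl cells and -0.31 in cKO cells, beside -0.02 and -0.01 over all genes.

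Tlr1, which encodes the partner of TLR2 for triacylated lipopeptides, was at 14.6, 21.6 and 1.76 CPM in replicates 1, 2 and 3 of unstimulated CD18fl/fl cells and at 56.1, 59.3 and 33.7 CPM after LPS. In cKO cells it was at 10.5, 15.8 and 2.28 CPM without LPS and at 38.2, 40.9 and 15.6 CPM with it. Every LPS library stood above its same-numbered control, and the groups did not overlap in CD18fl/fl cells but did in cKO cells, where replicate 3 after LPS (15.6 CPM) lay just under replicate 2 without it (15.8 CPM). The log2 fold change with the block was 2.47 ± 0.57 (SE), a 5.55-fold rise, in CD18fl/fl cells (edgeR adjusted p = 0.0422; 0.188 without the block) and 1.93 ± 0.31, a 3.81-fold rise, in cKO cells (0.00779; 0.213 without the block). By pair the log2 ratio was 1.94, 1.46 and 4.26 in CD18fl/fl cells and 1.87, 1.37 and 2.77 in cKO cells, so that the third pair, which began from the lowest controls, had the highest ratio in both genotypes. With replicates 1 and 2 alone, Tlr1 also passed in both genotypes (log2 fold change 1.67, adjusted p = 5.25e-05, and 1.48, adjusted p = 0.0180). Scaled by library size alone, which put the median of all genes at -0.36, Tlr1 did not pass in CD18fl/fl cells with the block (log2 fold change 2.14, adjusted p = 0.0821).

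Tlr6, which encodes the partner of TLR2 for diacylated lipopeptides, was at 11.8, 12.1 and 10.9 CPM in unstimulated CD18fl/fl cells and at 23.9, 31.7 and 19.3 CPM after LPS, with no overlap. The corresponding cKO libraries were at 7.97, 8.67 and 5.93 CPM and at 12.4, 11.8 and 7.99 CPM, and there the groups overlapped through replicate 3 of the LPS group. With the block, Tlr6 rose in CD18fl/fl cells by a log2 fold change of 1.09 ± 0.23 (SE), or 2.12-fold (adjusted p = 0.0330; 0.0644 without the block), and it passed in replicates 1 and 2 alone (1.22, adjusted p = 0.000495). It did not pass under scaling by library size alone (log2 fold change 0.76 with the block, adjusted p = 0.0741). In cKO cells the log2 fold change was 0.46 ± 0.24 (adjusted p = 0.225; 0.455 without the block), with each LPS library above its same-numbered control. Tlr6 was the most even member among the unstimulated CD18fl/fl libraries, at 11.6 ± 0.601 CPM (SD, n = 3).

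Tlr2, which encodes the subunit shared by both lipopeptide receptors, did not pass the test in either genotype. It was at 82.4, 74.9 and 126.3 CPM in unstimulated CD18fl/fl cells and at 58.8, 46.4 and 108.9 CPM after LPS, lower in each of the 3 pairs. In cKO cells it was at 67.0, 39.5 and 50.2 CPM without LPS and at 69.5, 20.3 and 32.6 CPM with it, lower in 2 of 3 pairs. The groups overlapped in both genotypes, and the log2 fold change with the block was -0.46 ± 0.22 (adjusted p = 0.201) and -0.55 ± 0.24 (adjusted p = 0.149).

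Tlr4, which encodes the LPS receptor itself, differed more between replicates than between treatments. Unstimulated CD18fl/fl libraries were at 33.5, 29.1 and 95.5 CPM and LPS libraries at 11.7, 7.58 and 120.5 CPM. The cKO libraries were at 26.0, 27.2 and 62.5 CPM without LPS and at 17.4, 9.97 and 66.9 CPM with it. In both genotypes replicates 1 and 2 were lower after LPS and replicate 3 was not, and replicate 3 of the CD18fl/fl LPS group stood 12.5 times above the mean of the other two. The log2 ratio by pair was -1.51, -1.94 and 0.34 in CD18fl/fl cells and -0.58, -1.45 and 0.10 in cKO cells. Over all 3 replicates Tlr4 did not pass with or without the block (adjusted p = 0.185 with it and 0.942 without it in CD18fl/fl cells, 0.179 and 0.859 in cKO cells). In replicates 1 and 2 alone its log2 fold change was -1.70 in CD18fl/fl cells (adjusted p = 0.000111), a fit in which 47.5% of all genes passed.

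That fit without replicate 3 called 8 of the 10 members in CD18fl/fl cells, Tlr1 and Tlr6 higher (23.2% of all genes were higher) and Tlr2, Tlr4, Tlr7, Tlr8, Tlr9 and Tlr13 lower (24.3%). In cKO cells it called Tlr1 higher and Tlr8 lower, against 15.9% of all genes in either direction. With the block as well, replicates 1 and 2 gave the same number in CD18fl/fl cells (49.3% of all genes) and 3 members in cKO cells (31.5%), the third being Tlr4 (log2 fold change -1.11, adjusted p = 0.00291), in fits with 1 residual degree of freedom. The number of members past the threshold in CD18fl/fl cells therefore rested on replicate 3. Between 11.0% and 28.2% of the reads of Tlr4 in a library were intronic, against 0% to 15.6% for Tlr3 and 0% to 8.86% for Tlr1. The share for Tlr5 ran from 0% to 61.0% in the libraries where it had reads, on at most 53 reads.

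Tlr5, which encodes the flagellin receptor, was close to the limit of detection. It had 18, 31 and 53 reads in unstimulated CD18fl/fl cells and 6, 18 and 9 after LPS, and 2, 52 and 6 reads in unstimulated cKO cells and 41, 0 and 0 after LPS. A count of 0 allows up to 3 reads, which was 0.0752 to 0.135 CPM in these libraries. The gene passed the filter on low counts in the LPS comparison of CD18fl/fl cells (log2 fold change -1.30 ± 0.81, adjusted p = 0.367) and in the genotype comparison without LPS (-0.37 ± 1.19, adjusted p = 0.907) but not in the other comparisons of groups. No difference in Tlr5 was detectable at this depth.

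**Figure D2:**
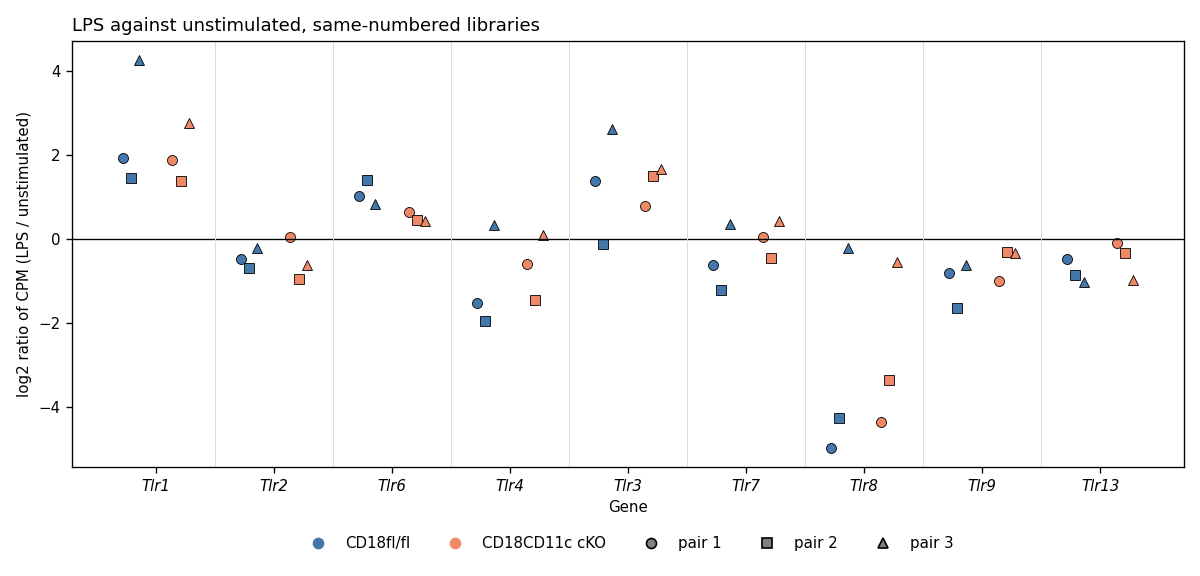
Log2 ratio of CPM, LPS over unstimulated, for each pair of same-numbered libraries (vertical axis) and each member except Tlr5. Blue markers are CD18fl/fl pairs and orange markers cKO pairs, with the shape giving the pair number and the horizontal line marking no difference. Tlr1 lay above 0 in all 6 pairs (1.37 to 4.26), while for Tlr8 pairs 1 and 2 lay between -4.96 and -3.37 and pair 3 between -0.54 and -0.22.

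Of the endosomal receptors, Tlr8, which encodes an RNA sensor, showed the widest span. It was at 27.1, 31.5 and 3.90 CPM in unstimulated CD18fl/fl cells and at 0.867, 1.64 and 3.35 CPM after LPS. In cKO cells it was at 6.65, 19.0 and 2.92 CPM without LPS and at 0.324, 1.84 and 2.01 CPM with it. Neither genotype overlapped between treatments, but the third pair moved little, with log2 ratios of -0.22 and -0.54 against -4.96, -4.27, -4.36 and -3.37 in the others. With the block, Tlr8 fell in cKO cells (log2 fold change -2.75 ± 0.77, 6.72-fold lower, adjusted p = 0.0479; 0.133 without the block). In CD18fl/fl cells the log2 fold change was -3.26 ± 1.04 (adjusted p = 0.0900; 0.0776 without the block), and DESeq2 without the block gave an adjusted p of 0.000160.

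The summed levels of marker lists of several other cell types moved with Tlr8, though not every list and not every gene of a list did. The sum of 6 plasmacytoid dendritic cell markers, mostly Bst2, went the other way. It was 262.8 to 393.5 CPM without LPS and 859.0 to 1260 CPM with it. That of 7 mast cell or basophil markers was highest in replicate 3 of every group, at 86.6 and 165.2 CPM without LPS, where Tlr8 was lowest. The summed level of 6 monocyte markers was 1172, 786.7 and 121.4 CPM in unstimulated CD18fl/fl cells and 290.1, 146.2 and 130.1 CPM after LPS, and 818.0, 929.3 and 182.1 CPM and 300.6, 271.8 and 74.0 CPM in the cKO groups. Ccr2, the chemokine receptor of inflammatory monocytes, was at 45.7 to 633.1 CPM without LPS and at 1.2 to 13.6 CPM with it, and no gene of the list was at 0 throughout a group. Ly6c2 of the same list went the other way in every same-numbered pair, at 2.35 to 38.1 CPM without LPS and 30.3 to 153.9 CPM with it. The summed level, like Tlr8, was lower after LPS in replicates 1 and 2 of both genotypes and low without LPS in replicate 3.

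The same held for 6 B cell markers, which summed to 31.2, 95.8 and 1.02 CPM without LPS and 8.83, 21.0 and 2.64 CPM with it in CD18fl/fl cells, and to 110.7, 138.8 and 0.665 CPM and 18.8, 42.2 and 1.55 CPM in cKO cells. It also held for 10 neutrophil markers, at 1326, 113.2 and 8.90 CPM and then 42.2, 43.0 and 12.1 CPM in CD18fl/fl cells, and at 194.3, 157.5 and 10.9 CPM and then 56.1, 68.9 and 14.4 CPM in cKO cells, where Elane, Mpo, Cxcr2 and Retnlg were at 0 after LPS. The 6 T cell markers fell in sum from between 18.9 and 36.8 CPM to between 3.92 and 7.81 CPM in replicates 1 and 2. The sum of 10 macrophage markers was lower after LPS in all 6 pairs, at 1822 to 2377 CPM without LPS and 564.0 to 1388 CPM with it. Not every gene of that list fell. Adgre1 went from 407.4, 490.5 and 433.6 CPM to 640.5, 630.7 and 554 CPM in CD18fl/fl cells, and from 233.7, 216.1 and 356.9 CPM to 265.3, 310.3 and 324.6 CPM in cKO cells. Marco was at 0 to 0.638 CPM without LPS and 2.11 to 25.1 CPM with it. The part of these lists in the level of Tlr8 was not tested.

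Tlr7, the other single-stranded RNA sensor, was at 31.5, 33.5 and 13.2 CPM in unstimulated CD18fl/fl cells and at 20.5, 14.4 and 16.8 CPM after LPS, with overlap at replicate 3. In cKO cells it was at 11.4, 19.2 and 7.49 CPM and at 11.7, 14.0 and 10.0 CPM, with the LPS libraries inside the range of the controls. The log2 fold change with the block was -0.49 ± 0.34 and -0.05 ± 0.26 (adjusted p of 0.354 and 0.916).

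Tlr13, the sensor of bacterial ribosomal RNA, was at 70.9, 83.0 and 28.0 CPM in unstimulated CD18fl/fl cells and at 50.7, 46.2 and 13.8 CPM after LPS. In cKO cells it was at 33.2, 41.9 and 21.8 CPM and at 30.9, 33.4 and 11.1 CPM. All 6 pairs were lower after LPS while the groups overlapped, and with the block the log2 fold change was -0.78 ± 0.22 (adjusted p = 0.0686) in CD18fl/fl cells and -0.51 ± 0.22 (0.145) in cKO cells.

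Tlr9, the CpG DNA sensor, was at 8.54, 13.6 and 4.81 CPM in unstimulated CD18fl/fl cells and at 4.88, 4.39 and 3.13 CPM after LPS, and at 5.55, 4.40 and 5.06 CPM and 2.75, 3.55 and 3.98 CPM in the cKO groups. It too was lower after LPS in all 6 pairs, with no overlap in cKO cells, and it did not pass (adjusted p of 0.0941 and 0.299 with the block). Tlr3, the double-stranded RNA sensor, had 17 to 109 reads in a library and was at 1.08, 1.65 and 0.454 CPM in unstimulated CD18fl/fl cells, 2.79, 1.52 and 2.77 CPM after LPS, and 0.818, 1.03 and 0.578 CPM and 1.42, 2.92 and 1.84 CPM in the cKO groups. It was higher after LPS in 5 of 6 pairs, and its log2 fold change with the block of 1.28 ± 0.70 and 1.27 ± 0.70 did not pass (adjusted p of 0.256 and 0.247).

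Over the members, the LPS and control groups did not overlap for 3 of 10 in CD18fl/fl cells (Tlr1, Tlr6 and Tlr8), against 29.5% of all genes, and for 3 of 9 in cKO cells (Tlr3, Tlr8 and Tlr9), against 28.1%. The share among members was close to that over all genes. Lower after LPS in all 3 same-numbered pairs were 5 of 10 members in CD18fl/fl cells (29.2% of all genes) and 3 of 9 in cKO cells (27.4%), and higher in all 3 were 2 (25.5%) and 3 (30.1%). The fitted log2 fold change was below 0 for 7 of 10 members (50.8% of all genes) and for 6 of 9 (50.9%).

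The second comparison asked whether TLR transcripts differed between cKO and CD18fl/fl cells. The cKO libraries tended to the lower side for nearly every member in both states. Without the block no member passed in unstimulated cells or after LPS, as no gene did (0% of 12876 and of 12441 genes tested by edgeR), and 1 member in each state had an unadjusted p under 0.05 (Tlr2 without LPS and Tlr6 after it) against 16.8% and 9.74% of all genes. DESeq2 without the block also called 0 members in each state, where 6.03% and 1.3% of the genes it tested passed. With the replicate number as a block, Tlr2, Tlr7 and Tlr13 were lower in unstimulated cKO cells, and Tlr1 and Tlr6 were lower in cKO cells after LPS. These were 3 of 10 members where 8.16% of all genes passed as lower, and 2 of 9 where 3.16% did. No member passed as higher, where 12.1% and 6.98% of all genes did. In replicates 1 and 2 alone, without the block, only Tlr13 (without LPS) and Tlr6 (after LPS) passed. With the block on those replicates, which leaves 1 residual degree of freedom, Tlr7, Tlr8, Tlr9 and Tlr13 were lower in unstimulated cKO cells (4 members, 11.8% of all genes) and Tlr6 after LPS (1 member, 4.17%).

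The fitted log2 fold change without the block was below 0 for 10 of 10 tested members in unstimulated cells and for 9 of 9 after LPS, where 52.7% and 56.9% of all genes were below 0. Its median over the members was -0.68 and -0.58, beside -0.05 and -0.11 over all genes. Lower in all 3 same-numbered pairs were 6 of 10 members without LPS (33.9% of all genes) and 4 of 9 after it (26.1%), and higher in all 3 pairs were 0 members in both states (24% and 23.1% of all genes). Several of the single values changed sign when 1 library was left out, those of Tlr1, Tlr3, Tlr4 and Tlr5 without LPS and those of Tlr4 and Tlr8 after it. The 2 states share no library, but the 4 groups carry the same replicate numbers.

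**Figure D3:**
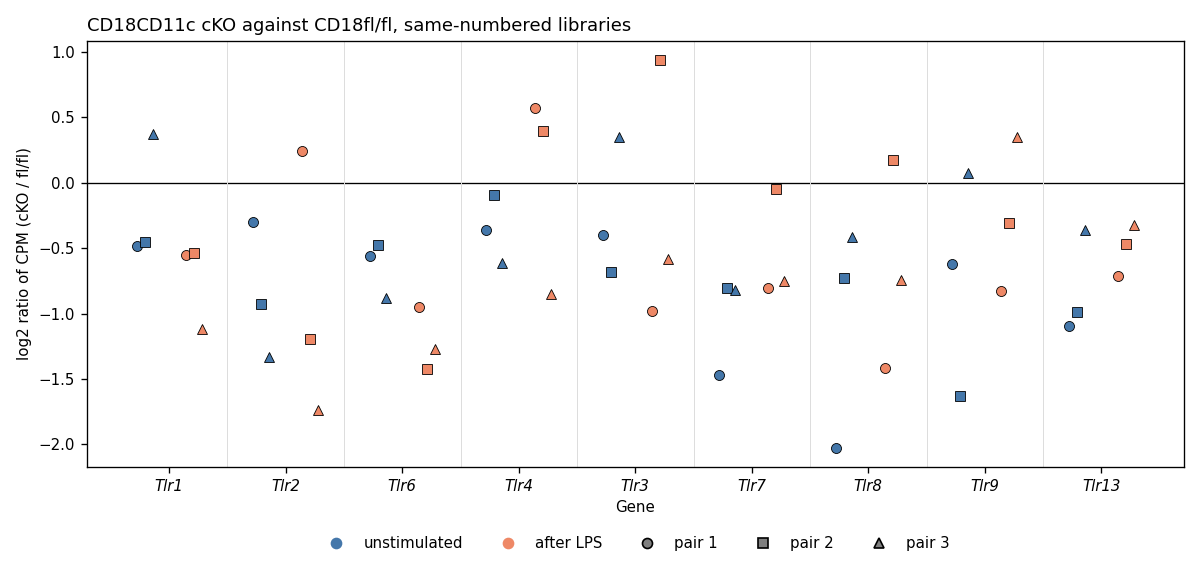
Log2 ratio of CPM, cKO over CD18fl/fl, for each pair of same-numbered libraries (vertical axis) and each member except Tlr5. Blue markers are unstimulated pairs and orange markers pairs after LPS, with the shape giving the pair number and the horizontal line marking no difference. Tlr6, Tlr7 and Tlr13 lay below 0 in all 6 pairs, and Tlr2 ranged from -1.74 to 0.24.

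Among the endosomal receptors Tlr7 stood at 26.1 ± 11.2 CPM in unstimulated CD18fl/fl cells and at 12.7 ± 5.99 CPM in cKO cells (SD, n = 3), with overlap between the groups through replicate 3 of CD18fl/fl cells. By pair the log2 ratio was -1.47, -0.80 and -0.82, and the log2 fold change with the block was -0.97 ± 0.20, or 1.96-fold lower (adjusted p = 0.0159; 0.347 without the block). In replicates 1 and 2 alone Tlr7 did not pass (log2 fold change -1.02, adjusted p = 0.0602) unless the block was kept (0.00835). After LPS the groups did not overlap, and the log2 fold change of -0.56 ± 0.21 did not pass (adjusted p = 0.136).

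Tlr13 averaged 60.6 ± 28.9 CPM and 32.3 ± 10.1 CPM in the same groups and was lower in each cKO library than in its same-numbered partner, with log2 ratios of -1.10, -0.99 and -0.36. The log2 fold change with the block was -0.76 ± 0.19, or 1.69-fold lower (adjusted p = 0.0286; 0.376 without the block), and -0.53 ± 0.16 after LPS (adjusted p = 0.0800). Tlr13 also passed in replicates 1 and 2 alone without LPS (log2 fold change -0.98, adjusted p = 0.0336), a fit in which 2.67% of all genes passed as lower. Tlr8 in unstimulated cells was lower in each cKO library (log2 ratios -2.02, -0.73 and -0.42) and did not pass with the block (log2 fold change -1.01 ± 0.31, adjusted p = 0.0572).

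For Tlr9 and Tlr3 the pairs went both ways. The log2 ratio of Tlr9 was -0.62, -1.63 and 0.07 without LPS and -0.82, -0.31 and 0.35 after it, and that of Tlr3 was -0.40, -0.68 and 0.35 and then -0.98, 0.94 and -0.59. Neither gene passed in either state, with adjusted p of 0.212 or more with the block.

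Of the plasma membrane receptors, Tlr2 averaged 94.5 ± 27.7 CPM in unstimulated CD18fl/fl cells and 52.2 ± 13.9 CPM in cKO cells, and the groups did not overlap. Its log2 fold change with the block was -0.80 ± 0.20, or 1.74-fold lower (adjusted p = 0.0296; 0.241 without the block). In replicates 1 and 2 alone Tlr2 did not pass, either without the block (log2 fold change -0.51, adjusted p = 0.219) or with it (-0.55, 0.0574). After LPS the first pair went the other way, with log2 ratios of 0.24, -1.19 and -1.74, and the log2 fold change of -0.93 ± 0.35 did not pass (adjusted p = 0.138).

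Tlr6 averaged 25.0 ± 6.28 CPM in CD18fl/fl cells after LPS and 10.7 ± 2.38 CPM in cKO cells, with every cKO library below every CD18fl/fl library. The log2 ratio by pair was -0.95, -1.43 and -1.27, and the log2 fold change with the block was -1.24 ± 0.18, or 2.36-fold lower (adjusted p = 0.0104; 0.336 without the block). It passed also in replicates 1 and 2 alone (log2 fold change -1.24, adjusted p = 0.0343), where 0.977% of all genes passed as lower. Without LPS the groups did not overlap either, but the log2 fold change of -0.58 ± 0.21 did not pass (adjusted p = 0.0850).

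Tlr1 averaged 49.7 ± 13.9 CPM in CD18fl/fl cells and 31.6 ± 13.9 CPM in cKO cells after LPS, with overlap, and was lower in each cKO library by log2 ratios of -0.55, -0.54 and -1.12. The log2 fold change with the block was -0.76 ± 0.17, or 1.69-fold lower (adjusted p = 0.0383; 0.644 without the block). In replicates 1 and 2 alone Tlr1 did not pass, either without the block (log2 fold change -0.58, adjusted p = 0.116) or with it (-0.58, 0.0795). In unstimulated cells it was -0.17 ± 0.24 (adjusted p = 0.657). Tlr4 did not pass in either state (adjusted p = 0.194 without LPS and 0.993 after it, both with the block), and after LPS its pairs went in both directions, with log2 ratios of 0.57, 0.39 and -0.85.

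The genotype groups did not overlap for 2 of 10 members without LPS (Tlr2 and Tlr6) against 24.8% of all genes, and for 2 of 9 after LPS (Tlr6 and Tlr7) against 17.6%. Other cell type markers were also unequal between the genotypes in unstimulated cells: the summed level of 10 neutrophil markers was 1326, 113.2 and 8.90 CPM in CD18fl/fl cells and 194.3, 157.5 and 10.9 CPM in cKO cells, and that of 6 B cell markers 31.2, 95.8 and 1.02 CPM and 110.7, 138.8 and 0.665 CPM. The B cell sum was the higher in cKO cells in replicates 1 and 2, opposite to the members that passed. After LPS, where Tlr1 and Tlr6 were lower in cKO cells, the sum of 10 macrophage markers did not overlap between the genotypes. It was 1274, 1388 and 1166 CPM in CD18fl/fl cells and 564.0, 892.2 and 939.9 CPM in cKO cells. The sums without LPS overlapped, at 2033, 2254 and 1917 CPM against 1822, 1824 and 2377 CPM. After LPS Adgre1 was the largest part of the sum, at 640.5, 630.7 and 554 CPM against 265.3, 310.3 and 324.6 CPM. Like Adgre1, Csf1r and Cd68 were lower in cKO cells in every pair. Mertk, Fcgr1 and C1qb were the higher in cKO cells in replicate 3 (57.1, 42.6 and 61.2 against 101.4, 88.6 and 134.7 CPM). They were the lower there in replicate 1. The sum of 6 markers of type 1 conventional dendritic cells was the higher in cKO cells in all 6 pairs, at 78.2, 86.6 and 78.4 CPM against 94.0, 91.7 and 115.7 CPM without LPS and 123.6, 115.4 and 49.9 CPM against 203.0, 189.4 and 119.7 CPM after it. After LPS most of that sum was Batf3, at 119.5, 106.5 and 26.1 CPM against 194.9, 181.2 and 70.6 CPM. Wdfy4 was lower in cKO cells in unstimulated replicates 1 and 2 (27.0 and 37.3 against 21.3 and 16.5 CPM). Xcr1, Clec9a and Cadm1 were at 0 to 2.86 CPM in every library. The part of these lists in the TLR levels was not tested.

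The third comparison asked whether the LPS difference itself depended on genotype. By the interaction term of edgeR on all 12 libraries no member passed, with or without the block, as no gene did (0% of 13752 genes), and no member had an unadjusted p under 0.05 where 0.705% of all genes did. DESeq2 called 0 members. For the 3 members called for LPS with the block by edgeR, the difference of the log2 fold changes (cKO minus CD18fl/fl) with the block was -0.57 ± 0.27 for Tlr6, -0.49 ± 0.60 for Tlr1 and 0.70 ± 1.16 for Tlr8 (adjusted p = 1 for each). The passing of Tlr6 under LPS in CD18fl/fl cells and not in cKO cells was therefore not shown to be a difference between the genotypes.

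Levels between members were compared as CPM per kilobase of exon. In unstimulated CD18fl/fl cells Tlr2 was highest at 31.4 ± 9.21, with no overlap with the next, Tlr13 at 14.9 ± 7.12. Tlr4 (9.64 ± 6.79), Tlr7 (6.57 ± 2.82), Tlr8 (5.99 ± 4.27), Tlr1 (4.06 ± 3.23), Tlr6 (3.11 ± 0.161) and Tlr9 (2.58 ± 1.27) followed, each overlapping its neighbour in this order. Tlr3 and Tlr5 stood apart below them at 0.217 ± 0.123 and 0.200 ± 0.105 (all SD, n = 3). The place of Tlr4 rested on replicate 3: with replicates 1 and 2 alone it averaged 5.73 and came after Tlr8 (8.43), Tlr7 (8.20) and Tlr1 (5.81).

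Most members changed rank after LPS, and by the means of 3 libraries Tlr1 and Tlr8 moved furthest in both genotypes. Tlr1 moved to the second rank, at 15.9 ± 4.47 in CD18fl/fl cells and 10.1 ± 4.46 in cKO cells, and Tlr8 dropped to 0.562 ± 0.367 and 0.400 ± 0.267 CPM per kb, in the range of Tlr3 (0.482 ± 0.148 and 0.421 ± 0.158). Tlr2 was first in rank in all 4 groups, at 23.7 ± 11.0 in CD18fl/fl and 13.5 ± 8.50 in cKO cells after LPS, although its range then overlapped that of Tlr1. With replicates 1 and 2 alone Tlr1 ranked above Tlr2 in CD18fl/fl cells after LPS (18.5 against 17.4), Tlr4 averaged 1.77 there (8.53 with replicate 3) and 2.50 in cKO cells after LPS (5.75 with it), and Tlr8 averaged 0.360 in CD18fl/fl cells after LPS.

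**Figure D4:**
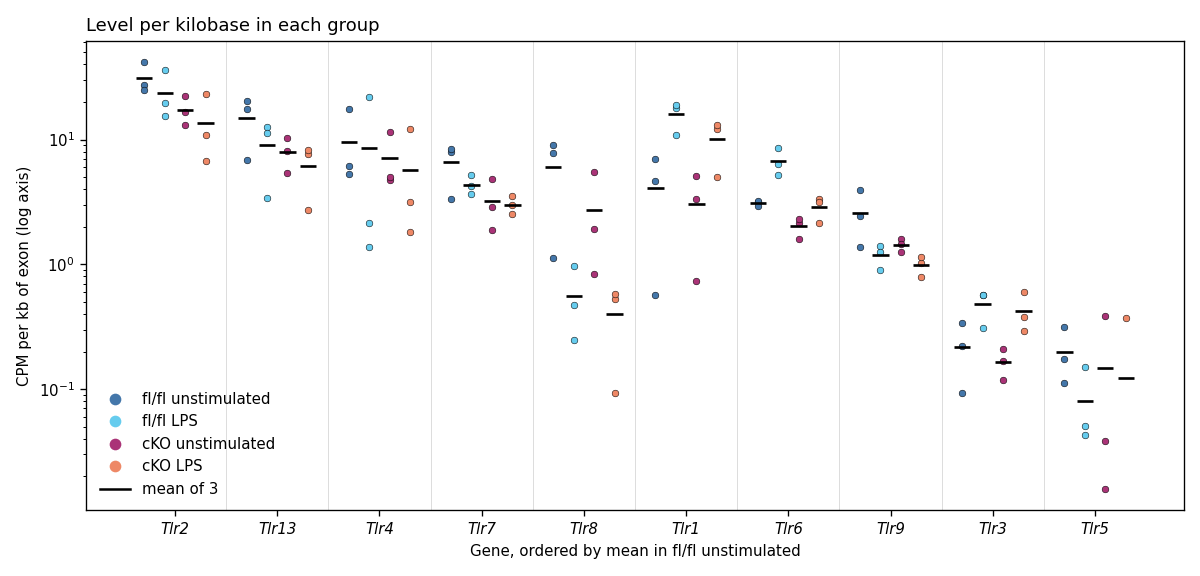
CPM per kilobase of exon (vertical axis, logarithmic) of the 10 members in the 4 groups. Each point is 1 library and each bar a mean of 3, and libraries with 0 reads are left out of the log axis. Tlr2 had the highest mean in all 4 groups, from 31.4 down to 13.5, and Tlr8 fell among the lowest after LPS at 0.562 and 0.400.

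Summed per kilobase, the 5 plasma membrane receptors came to 41.4, 40.5 and 63.2 CPM per kb in unstimulated CD18fl/fl cells, 46.1, 44.4 and 74.2 after LPS, 32.5, 25.9 and 30.4 in unstimulated cKO cells and 42.2, 24.8 and 30.2 in cKO cells after LPS. The 5 endosomal receptors came to 35.9, 42.2 and 12.8 CPM per kb in unstimulated CD18fl/fl cells and 19.9, 17.1 and 10.1 after LPS, and to 14.7, 22.1 and 9.68 and then 11.8, 13.9 and 7.35 in cKO cells. The endosomal sum was lower after LPS, and lower in cKO cells, in every same-numbered pair. The plasma membrane sum was lower in cKO cells in every pair too, and after LPS it was higher in each CD18fl/fl pair and lower in 2 of 3 cKO pairs. The sums weigh the most abundant members, Tlr2 and Tlr13, most.

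The other genes of the pathway were taken from a list of 55 adaptors, co-receptors, trafficking proteins, proteases, kinases, transcription factors and inhibitors, of which 54 passed the filter on low counts. In the LPS comparisons 1 gene passed by edgeR without the block in each genotype. This was Irf7, the interferon-inducible transcription factor downstream of endosomal TLRs, with log2 fold changes of 5.64 and 6.07 (adjusted p of 0.0162 and 0.00916). In the model with the block 8 of them rose and 1 fell in CD18fl/fl cells, and 12 rose and 6 fell in cKO cells, beside 12.8% and 20.2% of all genes in either direction. Irf8, a transcription factor of dendritic cell development, rose in both genotypes (1.66 and 1.97, adjusted p of 0.00772 and 0.00264), and Ly86, which encodes MD-1, the partner of RP105, fell in both (-0.92 and -1.37, adjusted p of 0.0436 and 0.00706). In cKO cells Irak4, a kinase next to MyD88, fell as well (-1.12, adjusted p = 0.0170).

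In the genotype comparisons none of the 54 passed by edgeR without the block, as no gene did in that test. DESeq2 without the block called 6.03% of the genes it tested without LPS and 1.3% after it. Its calls among the 54 are not given here. By edgeR with the block 2 were higher and 11 lower in unstimulated cKO cells (12.1% and 8.16% of all genes). After LPS 2 were higher and 5 lower (6.98% and 3.16%). Ube2n, a ubiquitin-conjugating enzyme, and Cd36, a scavenger receptor that acts with TLR2, were higher in cKO cells in both states (log2 fold changes of 1.16 and 0.73 for Ube2n and of 1.39 and 1.33 for Cd36, the larger adjusted p being 0.0491). Lower in both states were Wdfy1, Irak2 and Irak3. Wdfy1, whose product has been linked to TLR3 and TLR4 signalling, was at 4.92 against 27.5 CPM without LPS and 6.35 against 41.3 CPM after it (-2.37 and -2.64, adjusted p of 0.00298 and 0.00641). Rela, the p65 subunit of NF-κB, was lower without LPS (-0.69, adjusted p = 0.0234), and did not pass after it (-0.61, adjusted p = 0.0859). Irak2, a kinase of the MyD88 complex, was lower without LPS (-0.58, adjusted p = 0.0257) and after it (-0.89, adjusted p = 0.0156), as was Irak3, an inhibitor of that complex (-0.81 and -0.96, adjusted p of 0.0272 and 0.0455). The median log2 fold change over the 54 genes without the block was -0.34 without LPS and -0.35 after it, nearer to 0 than that of the TLR genes.

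Likeness of pattern was measured as the root mean square difference of mean-centred log2 CPM over the 12 libraries, against 13751 other genes, where a smaller value means a closer pattern. The nearest genes were Tnfrsf8 and Ube2l6 to Tlr1 (0.37 and 0.38), Htatsf1 and Mfsd1 to Tlr2 (0.32 and 0.34), Dnajb12 and Sik2 to Tlr6 (0.21 and 0.26), Septin11 and Hmgn5 to Tlr4 (0.30 and 0.38), and 1700003E16Rik and Zik1 to Tlr5 (0.88 and 0.93). For the endosomal receptors they were Gm5431 and Trim25 to Tlr3 (0.33 each), Borcs6 and Kansl1 to Tlr7 (0.24 and 0.25), F13a1 and Slc36a2 to Tlr8 (0.64 and 0.65), Selplg and Nsmaf to Tlr9 (0.27 and 0.28), and Ubald1 and Btg2 to Tlr13 (0.33 each). F13a1 is also one of the 6 monocyte markers. No member had another member among its 2 nearest genes, and the closest pair of members was Tlr7 and Tlr9 (0.51). The 12 libraries share replicate numbers, so these values are a description.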

How the data were processed

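Poly(A) RNA of MHCII-positive BMDCs was sequenced as single reads. The authors trimmed adapters, aligned with the CLC Genomics Workbench to GRCm39 (the submitters' notes name GRCm38, but the coordinates in the table are those of GRCm39) and deposited total, unique, exon, intron and junction gene reads as raw counts per gene. Total gene reads of 12 libraries (29689149 to 34037178 each) were used here. The library kit named does not mark strand, so antisense reads cannot be told apart. The TPM, RPKM and expression value columns were not used.

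Genes were filtered with filterByExpr (minimum count 10), scaled by TMM and tested with the quasi-likelihood test of edgeR 4.0.16 in R 4.3.3 on the 6 libraries of a comparison (12 for the interaction), with Benjamini-Hochberg adjustment over all tested genes and a threshold of 0.05. Nothing states that replicates came from separate mice, so p-values measure the spread between these libraries. The labels do not state that same-numbered libraries belong together. In every pair of same-numbered libraries the deviations from the group means correlated at r of 0.273 to 0.716. Between replicates 1 and 2 of different groups r was also above 0 (0.165 to 0.348), and between replicate 3 and either of them it was -0.581 to -0.324. The correlations thus set replicate 3 apart but hardly show that replicates 1 and 2 are paired by number. Fits with the number as a block are given where they change a call. Alternatives were DESeq2 1.42.0, the block, other scalings and filters, unique or exon reads, a gene length offset, all 12 libraries in 1 fit, replicates 1 and 2 alone, and leaving out each library. The scripts were tested on simulated data. A floor of 3 reads covers counting error only. Figures and sequences were made with Python 3.11.15, GENCODE and RefSeq tables. The members, pathway and marker lists were chosen with earlier results of these data known. Named were all members, Itgb2, at most 2 pathway genes per direction and comparison by adjusted p, and the 2 genes nearest to each member. Zbtb46, H2-Ab1, Itgax, Flt3, Ccr2, Irak3 and the further genes named from the marker lists were chosen after their values were seen.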

Additional observations from a re-analysis of the deposited data

How the results depend on the processing

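Without the replicate block, edgeR called 0 members in each of the 5 comparisons. For LPS in CD18fl/fl cells the count was 3 with DESeq2 (12.8% of all genes passed) and 8 with replicates 1 and 2 only (47.5%). It was 1 without a filter on low counts and 1 with all 12 libraries in 1 fit. It was 0 to 3 when 1 library was left out: 1 without replicate 3 of the unstimulated and 3 without replicate 3 of the LPS libraries. Where leaving out a library, dropping the filter or fitting all 12 libraries called a member, more genes of any kind passed too than in the unchanged fit. The share of all genes is not given for these counts, so they do not show whether members passed more often than other genes. For LPS in cKO cells the count of members was 1 with DESeq2 (10.7% of all genes) and 2 with replicates 1 and 2 only (15.9%). In the genotype comparisons it was 1 in each state with replicates 1 and 2 only (10.6% without LPS and 4.22% after it). Leaving out any 1 library gave 0 to 0 in these 3 comparisons and in the interaction, which had 0 members under every alternative run. The settings with replicates 1 and 2, exon reads, and the block with another scaling were added after seeing the data.

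With the replicate block the counts were 2, 2, 3 and 2 (LPS in CD18fl/fl, LPS in cKO, genotype without LPS, genotype after LPS). Of all genes, 12.8%, 20.2%, 20.2% and 10.1% passed in these fits. The counts were 4, 2, 4 and 3 with DESeq2 and the block, and 2, 1, 2 and 1 with a gene length offset and the block. They were 2, 2, 4 and 2 with RLE size factors and the block, and 1, 2, 6 and 4 with library size scaling and the block. With replicates 1 and 2 only and the block they were 8, 3, 4 and 1. There 49.3% and 31.5% of all genes passed in the LPS comparisons, and 11.8% and 4.17% passed as lower in the genotype comparisons. The other counts in this list are given without that share, so they do not show whether members passed more often than other genes. Under library size scaling with the block, Tlr1 and Tlr6 no longer passed for LPS in CD18fl/fl cells (adjusted p of 0.0821 and 0.0741) and the 1 member called was Tlr13, lower (0.0333). Library size scaling without the block shifted all genes, whose median became -0.32, -0.23, -0.44 and -0.37 on the log2 scale in these comparisons, with 7, 6, 10 and 9 members below 0 as with TMM. The 6 and 4 members called between genotypes under this scaling with the block were all lower, and cannot be set apart from a shift of all genes.

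Of the single values, the log2 fold change of Tlr4 after LPS between genotypes changed sign, to 0.034 with DESeq2 and the block, 0.18 with the length offset and the block, 0.47 with replicates 1 and 2 only, 0.45 with those replicates and the block, and 0.031 with RLE size factors and the block. So did that of Tlr7 under LPS in cKO cells, to 0.0028 with the length offset and the block, and that of Tlr5 between genotypes without LPS, to 0.57 with replicates 1 and 2 only. With 1 library left out, the log2 fold change ran for Tlr4 from -2.44 to 0.58 (LPS in CD18fl/fl), from -1.59 to 0.24 (LPS in cKO), from -0.91 to 0.34 (genotype without LPS) and from -1.83 to 1.69 (genotype after LPS). It ran for Tlr1 from -0.96 to 0.25, for Tlr3 from -0.72 to 0.12 and for Tlr5 from -2.79 to 0.17 (genotype without LPS), for Tlr8 from -0.91 to 0.12 (genotype after LPS), for Tlr7 from -0.42 to 0.29 (LPS in cKO) and for Tlr1 from -0.98 to 0.34 (interaction). Of the other values under alternatives that kept all or a set of replicates, 514 kept their direction and side of the threshold and 85 passed it in addition. The cause was not tested.

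Depth limits Tlr5 and Tlr3, with at most 53 and 109 reads in a library, and 3 libraries a group limit every test: an exact permutation test of 3 against 3 cannot go below p = 0.1.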

Other observations

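Of the other TLR genes in the table, Tlr11 had 0 to 25 reads and Tlr12 had 0 to 189 reads in a library. Both encode endosomal receptors of profilin in mice and belong to no list used above as a member. Tlr12 was at 2.02, 4.74 and 0.267 CPM in unstimulated CD18fl/fl cells and at 0.193, 0.558 and 0.178 CPM after LPS, and at 1.53, 2.80 and 0.780 CPM and 0, 0.808 and 0.227 CPM in the cKO groups. It was lower after LPS in all 6 same-numbered pairs and, like Tlr8, low without LPS in replicate 3. It did not pass a test with the block (edgeR adjusted p = 0.0988 in CD18fl/fl cells and 0.159 in cKO cells), while DESeq2 without the block called it in CD18fl/fl cells (adjusted p = 0.0353) and not in cKO cells (0.217).

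After LPS the dendritic cell maturation markers Cd86 and Cd40 stood higher in all 3 replicates of both genotypes, replicate 3 included. Cd86 was at 154.7 to 207.6 CPM in CD18fl/fl and 310.7 to 501.1 CPM in cKO cells without LPS, and at 592.1 to 737.3 and 1537 to 2013 CPM with it. Of the same list of 11 dendritic cell markers, Itgax and Cd74 went the other way in all 3 replicates of both genotypes. Itgax was at 141.7 to 680.1 CPM without LPS and 30.7 to 284.5 CPM with it, and Cd74 at 3122 to 5481 and 1930 to 4464 CPM. Ccr7, the chemokine receptor of migrating dendritic cells, was already at 1430.5 to 2267 CPM in the unstimulated libraries of replicates 1 and 2 and at 199.5 to 240.6 CPM in those of replicate 3, the libraries in which Tlr1 and Tlr8 were lowest and Tlr4 highest among unstimulated cells. After LPS Ccr7 was at 1238 to 2822 CPM in CD18fl/fl and 1220 to 1654 CPM in cKO cells, lower than without LPS in replicates 1 and 2 of cKO cells. These genes were picked after their values were seen.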
